A study of Gossypium hirsutum with 15 samples.

Results

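The 21 cDNA probes described here differed at least 2-fold between fibers of the immature fiber (im) mutant and fibers of TM-1 at 13 days post-anthesis (DPA), and less than that at each later stage. They were chosen by the ratio of the lines itself, from 12092 probes measured at every stage, of 29184 cDNA probes on the array. A spot counted as measured where at least 1 dye reached 400 intensity units, and a probe was kept with at least 2 such arrays at each stage. The mean log2 ratio had to be at least 1 in size at 13 DPA and under 0.7 at each of the 4 later stages. All 21 probes were higher in the im mutant at 13 DPA, and 0 were higher in TM-1.

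The arrays compared the im mutant of Upland cotton (Gossypium hirsutum), which carries the mutation in a TM-1 background, with TM-1 itself, the wild-type genetic standard line. Both lines were near-isogenic and were grown in the field. Each dual-dye array held RNA of im fibers and of TM-1 fibers of 1 stage, and the 15 arrays covered 13, 16, 19, 22 and 25 days post-anthesis with 3 arrays each. The sample labels name fiber as the tissue, whereas the series record speaks of ovules that bear fibers, and the methods describe pooled plants. Whether the array with exchanged dyes came from an extract of its own is not clear from the methods, so p-values measure only the spread between arrays, which may be technical. A lower signal from fewer cells of a kind cannot be told apart from less RNA per cell in such bulk RNA.

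A cotton fiber is a single cell that grows out from the surface of the seed. It first elongates with a thin primary wall, then passes through a transition and lays down a secondary wall of nearly pure cellulose. The im mutant is known for fibers that stay immature, with thin walls. The stages sampled run from elongation into secondary wall deposition, and the comparison of the lines at each stage asks which transcripts differ while the wall is being changed. Spot names of this array could not be matched to genes with the tables at hand, so neither a gene, a function nor a sequence could be given for the 21 probes, and the tissue could not be checked against marker genes. A spot name gives the source plate and well of the cDNA clone.

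Ratios are log2(im/TM-1), so that a positive value means more signal from the im mutant, and they come from the deposited value table. The direction follows the source names, which place the im mutant in Cy5 on replicates 1 and 3 and TM-1 in Cy5 on replicate 2. This direction is not settled, and it opposes the methods, which place TM-1 in Cy5, with the dyes exchanged in a dye swap. By that assignment every sign below turns, and the same 21 probes would be higher in TM-1 at 13 DPA with 0 higher in the im mutant. The dye labels place the im mutant in Cy5 on all 15 arrays. An equal dye order on all arrays goes against the values of 13 DPA, where replicate 2 ran opposite to replicates 1 and 3. On the deposited Cy5 over Cy3 scale, the arrays of 13 DPA correlated across probes at -0.66 for replicates 1 and 2, at -0.57 for replicates 2 and 3 and at 0.69 for replicates 1 and 3. At 16 and 22 DPA the material labels contradict the source names, so the signs at these stages could turn apart from the rest.

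At 13 DPA the mean ratio of the 21 probes lay between 1.02 and 2.73, with a median of 1.15, which is 2.21-fold. Every one of them was above 0 on each of its measured arrays of 13 DPA. As these ratios chose the probes, they are given as a description with no test. In a limma fit from the intensities, 21 of the 21 were also called higher in the im mutant at 13 DPA, where 1.26% of all probes tested were called in that direction, and nothing can be read from this count because the same contrast chose them. A total of 19 of the probes were measured on all 3 arrays of 13 DPA and 2 on 2 arrays, and 14 were measured on all 15 arrays. Over the stages, 16 of 315 member spots were too faint to be measured and 0 were saturated.

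**Figure D1:**
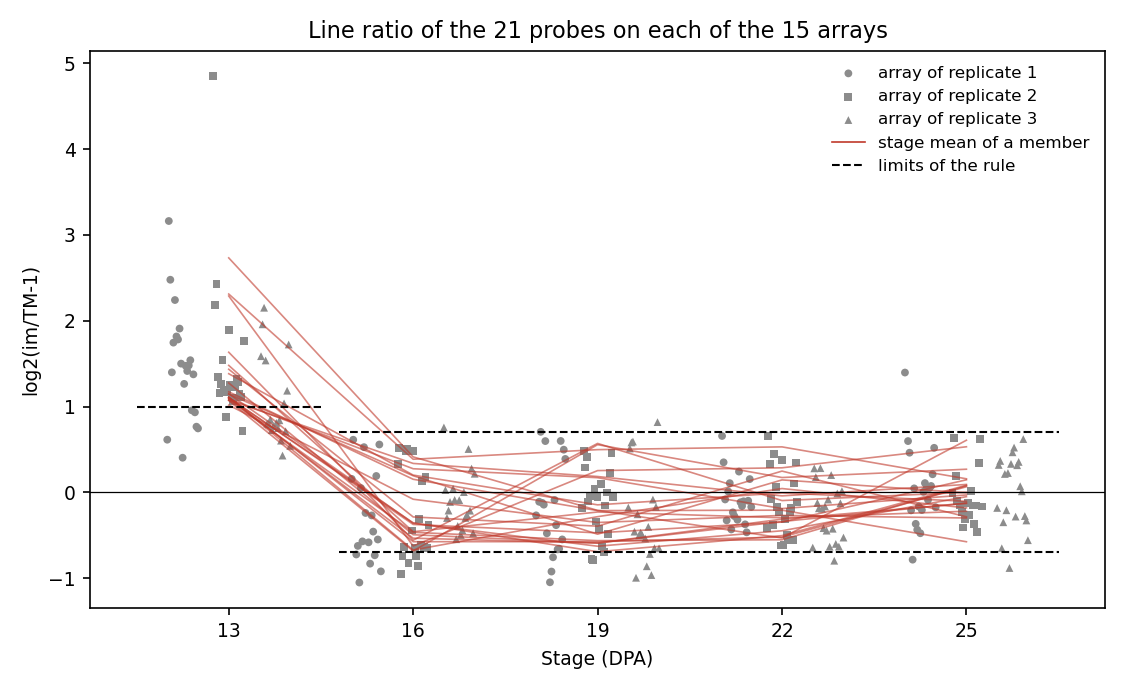
The log2(im/TM-1) ratio (y axis) of the 21 probes at each stage in DPA (x axis), with grey points for single arrays (circles, squares and triangles for replicates 1, 2 and 3) and red lines joining the stage means of each probe. Dashed lines are the limits of 1 at 13 DPA and of 0.7 in size later. The points of 13 DPA are all above 0, and 1 point of replicate 2, at 4.85, stands far above the others.

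Among the probes measured on all 15 arrays, 384P55_O_22 had the largest mean ratio at 13 DPA. Its background-subtracted signal was 2598, 2470 and 5835 units in im fibers, against 890, 997.5 and 1183 units in TM-1 fibers, on replicates 1, 2 and 3. The im signal was the higher on each array and the lines did not overlap. The ratios were 1.40, 1.35 and 2.15, with a mean of 1.63 ± 0.45 (SD, n = 3), which is 3.10-fold. At 16 DPA the sign was the other way on every array, with ratios of -0.73, -0.74 and -0.21, and by the material labels these would be positive. They were 0.70, 0.41 and 0.59 at 19 DPA. At 22 DPA they lay between -0.12 and -0.08 by the source names, and between 0.08 and 0.12 by the material labels.

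The second was 384P56_E_18, with 6064.5, 2273 and 1179.5 units in im fibers, against 1582, 1047 and 380.5 units in TM-1 fibers, at 13 DPA. The signal of both lines differed several-fold between the arrays, and the im signal was the higher on each. The ratios of 1.75, 1.16 and 1.54 gave a mean of 1.48 ± 0.30 (SD, n = 3), a 2.79-fold difference. In contrast to 384P55_O_22, its ratio was below 0 on all 12 later arrays by the source names. The means were -0.46 at 16 DPA, -0.23 at 19 DPA, -0.30 at 22 DPA and -0.22 at 25 DPA. By the material labels the ratios of 16 and 22 DPA would be positive.

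Larger ratios were found on probes that were not measured on all arrays, and these were singled out after their values had been seen. Probe 384P75_D_08 had 2582, 4844 and 2327 units in im fibers, against 429, 943 and 553 units in TM-1 fibers. Its ratios of 2.48, 2.43 and 1.96 varied less, with a mean of 2.29 ± 0.29 (SD, n = 3), or 4.88-fold. By the source names its im signal at 16 DPA was 368.5 and 643 units, against 699 and 750.5 units in TM-1, on the 2 measured arrays. The material labels would exchange the lines at that stage. At 25 DPA the mean ratio was 0.53. Probe 384P75_C_24 had 1078.5, 2119 and 1439 units in im fibers, against 132.5, 459 and 446.5 units in TM-1 fibers, and its ratios of 3.16, 2.19 and 1.59 spread more widely (mean 2.31 ± 0.80, SD, n = 3).

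The highest mean of all rests on 1 faint value. For 384P04_O_05, the signal was 986 and 1552.5 units in im fibers, against 615.5 and 43.5 units in TM-1 fibers, on replicates 1 and 2, with replicate 3 not measured. The ratio was 4.85 on replicate 2 and 0.61 on replicate 1, with a mean of 2.73 ± 3.00 (SD, n = 2), so only the value of replicate 2 was past the limit. Probe 384P01_N_02, also on 2 arrays, had ratios of 0.40 and 1.89 on replicates 1 and 2. When a probe had to be measured on all 3 arrays of 13 DPA, 19 of the 21 were left.

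Faint TM-1 signals were also found among the other large ratios of 13 DPA. They occurred on 1 array each for 384P75_C_24 (mean 2.31), 384P56_E_18 (mean 1.48) and 384P60_F_20 (mean 1.43). For 384P75_D_08 (mean 2.29) and 384P55_O_22 (mean 1.63) they occurred on 0 arrays. When both dyes had to reach 400 units, the mean of 384P75_C_24 fell to 1.89, whereas that of 384P56_E_18 was 1.45. The TM-1 signal at 13 DPA was under 400 units on some array for 6 of the 21 probes and on every array for 1, whereas the im signal was under that level for 0. This 1 probe, 384P75_H_09, had 887.5, 529.5 and 553 units in im fibers, against 248, 246.5 and 320.5 units in TM-1 fibers. Since the TM-1 signal was faint on each of these arrays, its fold is not given. In 15 of the 21 both lines were at 400 units or more on every measured array, and the brightest, 384P29_G_16, had 41899.5, 32455.5 and 25714 units in im fibers, against 13889.5, 16648.5 and 13288.5 units in TM-1 fibers.

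The 3 arrays of 13 DPA differed in how large they showed the difference. Over the 19 probes measured on all of them, the median ratio was 1.48 on replicate 1, 1.22 on replicate 2 and 0.81 on replicate 3. Replicate 3 gave the lowest ratio in 14 of the 19, replicate 2 in 3 and replicate 1 in 2, and 12 of the 19 were under 1 on replicate 3. Only 4 were at least 1 on each array. The spread of the ratios over all measured probes was close on the arrays, with SDs of 0.477, 0.453 and 0.424. The median SD of a member over the arrays of 13 DPA was 0.45, against 0.18 for all measured probes.

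To read the ratio on arrays that had not chosen the probes, the rule was applied to the arrays of 2 replicates and the ratio at 13 DPA was taken from the left-out array. Of probes chosen as higher in the im mutant, 15 of 15 kept their side on replicate 1, 14 of 14 on replicate 2 and 21 of 21 on replicate 3. Their median on the left-out array was 1.26 on replicate 1, 1.15 on replicate 2 and 0.79 on replicate 3, against 1.16, 1.12 and 1.24 on the arrays that chose them. Of these probes, 8, 11 and 5 were again at least 1 on the left-out array. In each of the 3 cases, 11 of the chosen probes were among the 21. These counts are a description only. The left-out array may share an extract with the others, and the arrays of 13 DPA correlated over all probes. A probe past 1 on 2 arrays was therefore likely to keep its side on the third, and no share over all probes was set beside the counts.

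The same procedure brought out few probes on the other side. It chose 2, 4 and 5 probes as higher in TM-1, of which 2, 3 and 4 kept their side on the left-out array and 0, 1 and 1 were again at least 1 in size. Their median size was 0.62, 0.33 and 0.67 on the left-out arrays, below the limit of 1 that they had passed on the arrays that chose them. Choosing on 2 arrays favours a smaller size on the third, and the im side was also below 1 on replicate 3, at 0.79. On replicate 3 the values of the 5, counted towards TM-1, ran between -0.03 and 7.03. With so few probes the 2 directions cannot be compared, and these counts are a description only. None of these probes was among the 21.

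The 2 directions were also compared among the 7574 probes that stayed under 0.7 at all 4 later stages. At 13 DPA, 79 of these were at least 0.7 higher in the im mutant and 54 at least 0.7 higher in TM-1, and the means lay between -0.986 and 2.73. Just under the limit, from 0.9 to 1, there were 17 on the im side and 7 on the TM-1 side. The members nearest to the limit were 384P20_D_06, at 1.02, and 384P14_H_23, at 1.07. Outside it were 384P39_J_15, at 0.987, and 384P45_H_18, at 0.986, on the im side. On the TM-1 side 384P38_P_01, at -0.986, and 384P67_P_10, at -0.985, came closest. Thus the nearest TM-1 candidates missed the limit by less than the median SD of a probe over the arrays, 0.18.

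**Figure D2:**
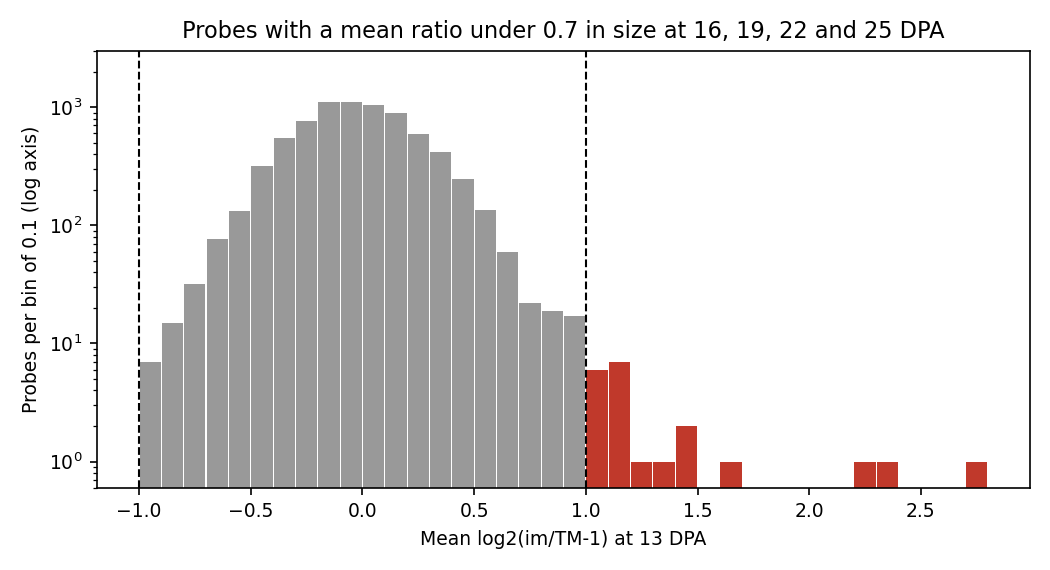
Number of probes (y axis, log scale) per bin of 0.1 in mean log2(im/TM-1) at 13 DPA (x axis), for the 7574 probes under 0.7 in size at all later stages, with dashed lines at -1 and 1. The 21 members, in red, lie to the right of 1, and no probe lies to the left of -1.

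Of all 12092 measured probes, 147 had a mean ratio of at least 1 in favour of the im mutant at 13 DPA and 103 in favour of TM-1. Of the 147, 126 passed 0.7 at some later stage, and these were on the same and on the opposite side in similar numbers, with 44 same-side and 42 opposite-side probes at 16 DPA, 34 same-side and 35 opposite-side ones at 19 DPA, 23 same-side and 34 opposite-side ones at 22 DPA, and 16 same-side and 14 opposite-side ones at 25 DPA. By the material labels, the numbers of 16 and 22 DPA would change places. All 103 probes higher in TM-1 passed 0.7 at a later stage, 72 of them on the same side at 25 DPA, against 4 on the opposite side. Members closest to the later limit were 384P09_K_05, at -0.693 at 19 DPA, and 384P14_H_23, at -0.684 at 16 DPA. Just past it were 384P40_J_11, at -0.709 at 22 DPA, and 384P29_P_20, at 0.724 at 25 DPA, and 11 probes past the limit of 13 DPA had a largest later ratio between 0.7 and 0.8.

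With the same limits set at each stage in turn, a difference at that stage alone was found for 21 probes at 13 DPA, 416 at 16 DPA, 231 at 19 DPA, 60 at 22 DPA and 73 at 25 DPA. By the source names, 184 were higher in the im mutant and 232 in TM-1 at 16 DPA. At 19 DPA there were 160 on the im side and 71 on the TM-1 side, followed by 26 im-side and 34 TM-1-side probes at 22 DPA and by 37 im-side and 36 TM-1-side probes at 25 DPA. The material labels would make these 232 im-side and 184 TM-1-side probes at 16 DPA, and 34 im-side and 26 TM-1-side probes at 22 DPA. At 13 DPA the number was the lowest of the 5 stages, and 13 DPA was the stage with all of its probes on 1 side. These sets were not compared by a test. The median SD of a probe's ratio over the arrays was 0.18 at 13 DPA, against 0.20, 0.23, 0.17 and 0.27 at the later stages in order.

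After 13 DPA, by the source names, the ratios of the 21 probes lay more often on the TM-1 side at 16, 19 and 22 DPA and were near 0 on average at 25 DPA. The median was -0.36 at 16 DPA, where 14 of the 21 were below 0, against 53.5% of all measured probes. It was -0.28 at 19 DPA with 15 below 0 (all probes 47.4%), -0.21 at 22 DPA with 15 below 0 (49.2%), and -0.01 at 25 DPA with 12 below 0 (46.0%). A ratio below 0 on every measured array was found in 11 of the 21 at 16 DPA, 12 at 19 DPA, 13 at 22 DPA and 3 at 25 DPA. With the material labels these counts would be 5 at 16 DPA and 4 at 22 DPA. The share of all probes below 0 on every array was not computed. By the material labels the medians of 16 and 22 DPA would be 0.36 and 0.21, with 7 and 6 of the 21 below 0, and only 19 DPA would keep a median clearly on the TM-1 side. As the rule used these values, no test was made of them.

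By the source names, 9 probes were below 0 at 16, 19 and 22 DPA alike, against 20.5% of all measured probes, and 5 of the 21 were below 0 at every later stage. By the material labels 1 probe would be below 0 at these 3 stages, against 6.13% of all measured probes, and 1 at every later stage, so the common side of the 9 rests on the source names. Probe 384P29_G_16, singled out after its values had been seen, shows this course. Its ratios were 1.38, 1.14 and 0.71 at 13 DPA, and at 16, 19 and 22 DPA all 9 arrays lay between -0.65 and -0.21. At 25 DPA they were 0.07, -0.47 and 0.62. The course of 384P25_L_23 was the nearest to it, with a correlation of 0.97 over the 15 arrays and of 0.88 over the 12 later arrays. Such correlations are a description, since the rule fixed the step after 13 DPA and the points share their arrays, dyes and normalization.

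Among the 14 probes measured on all arrays, the correlation of the ratios had a median of 0.77 over 91 pairs and lay between 0.32 and 0.97. The rule favours such positive values, since it set the ratio of every probe higher at the first stage than later. Over the 12 later arrays alone the median was 0.05, and pairs lay between -0.51 and 0.89. The 8 of these that were below 0 at 16, 19 and 22 DPA had a median of 0.66 over 28 pairs on the 12 later arrays, with pairs between -0.16 and 0.88. They were picked by their signs on those arrays by the source names, so this value is partly set by the choice. The nearest probe to 384P55_O_22 was 384P14_H_23, with 0.91 over 15 arrays, and the nearest to 384P56_E_18 was 384P71_A_08, with 0.91. The nearest to 384P58_N_14 was 384P62_G_09, with 0.88. These nearest values are over 15 arrays and include the step fixed by the rule. No pairs of other probes were set beside them, so they are a description only. All these correlations use the signs of the source names, which could turn at 16 and 22 DPA.

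The positions on the array were not evenly shared. The 21 probes came from 17 of 76 source plates, and 15 were alone on their plate. Plate 75 held 4 of them, among 102 measured probes of that plate, whereas the median plate had 163 measured probes. The ratios of these 4 at 13 DPA ran between 1.15 and 2.31 and included 384P75_C_24 and 384P75_D_08. All 4 were printed in row 25, the last row of a print block, in which 444 measured probes lay. Plate 14 held 2 members. Across the 48 print blocks, 16 held a member and none held more than 2. Whether the clones of 1 plate overlap in sequence was not tested.

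To see which line moved, the normalised level of each line was followed over the stages. In im fibers the median level of the 21 probes (log2) was 11.33 at 13 DPA, 10.08 at 16 DPA, 10.92 at 19 DPA, 11.09 at 22 DPA and 11.59 at 25 DPA. The TM-1 values were 9.98, 9.88, 10.74, 11.13 and 11.46 at the same stages. The median of all measured probes stayed between 10.49 and 10.83 in the im mutant and between 10.44 and 10.82 in TM-1. By the material labels the values of both lines at 16 DPA, and likewise at 22 DPA, would change places.

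**Figure D3:**
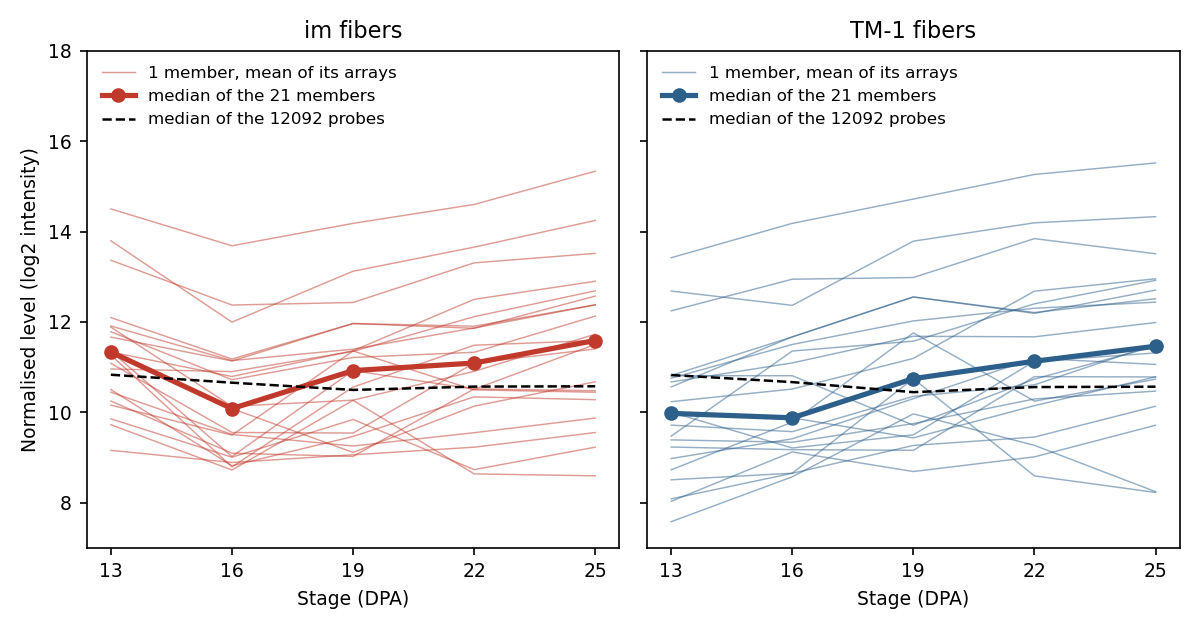
Normalised level (y axis, log2 intensity) at each stage in DPA (x axis) in im fibers (left) and TM-1 fibers (right). Thin lines are the 21 probes (mean of their arrays), thick lines their median and dashed lines the median of the 12092 measured probes. The im median has its lowest point at 16 DPA, at 10.08, and the TM-1 median lies higher at each stage from 19 DPA onwards than at 13 DPA.

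By the source names, 21 of 21 probes had a lower mean level in the im mutant at 16 DPA than at 13 DPA, with a median change of -0.99, against -0.15 for all measured probes. In TM-1, 14 of the 21 had a higher level at 16 DPA, and the median change was 0.44, against -0.15 for all measured probes. The change was larger in size in the im mutant than in TM-1 in 15 of the 21. With the lines exchanged at 16 DPA as in the material labels, 19 of the 21 were lower in the im mutant, with a median change of -1.07, and 14 were higher in TM-1, with a median change of 0.22, and the change was again larger in size in the im mutant in 15. From 13 to 25 DPA the median change was 0.32 in the im mutant, with 15 higher at 25 DPA. It was 1.68 in TM-1, with 20 higher. Because the rule fixes the difference between both lines' changes, these values were not tested. A high im signal over TM-1 at 13 DPA, as the rule required, favours a later fall in the im mutant and a rise in TM-1. Shares of all probes were not computed for each line. In mean level of both lines, 33.6% of all measured probes were higher at 16 than at 13 DPA, and 39.4% at 25 DPA.

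The im level at 13 DPA was also set beside the TM-1 levels of later stages. It was above the TM-1 level of 16 DPA in 19 of the 21, of 19 DPA in 12, of 22 DPA in 9 and of 25 DPA in 7, so that the members went both ways at the last 3. The im level at 13 DPA minus the TM-1 level had a median of 1.07 with TM-1 taken at 16 DPA, 0.10 with TM-1 at 19 DPA, -0.09 at 22 DPA and -0.23 at 25 DPA. By the material labels it would be 0.99 at 16 DPA, with 21 of the 21 above, and 0.06 at 22 DPA, with 12 above. In 14 of the 21 the im level at 13 DPA lay between the TM-1 levels of 13 and 25 DPA. The lower end of that range was set by the rule, which chose probes with im above TM-1 at 13 DPA. The same choice favours a high im level at 13 DPA in every count of this paragraph. Shares over all probes were not computed for them, so they are a description only. These differences set levels of different arrays side by side and carry the error of both.

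**Figure D4:**
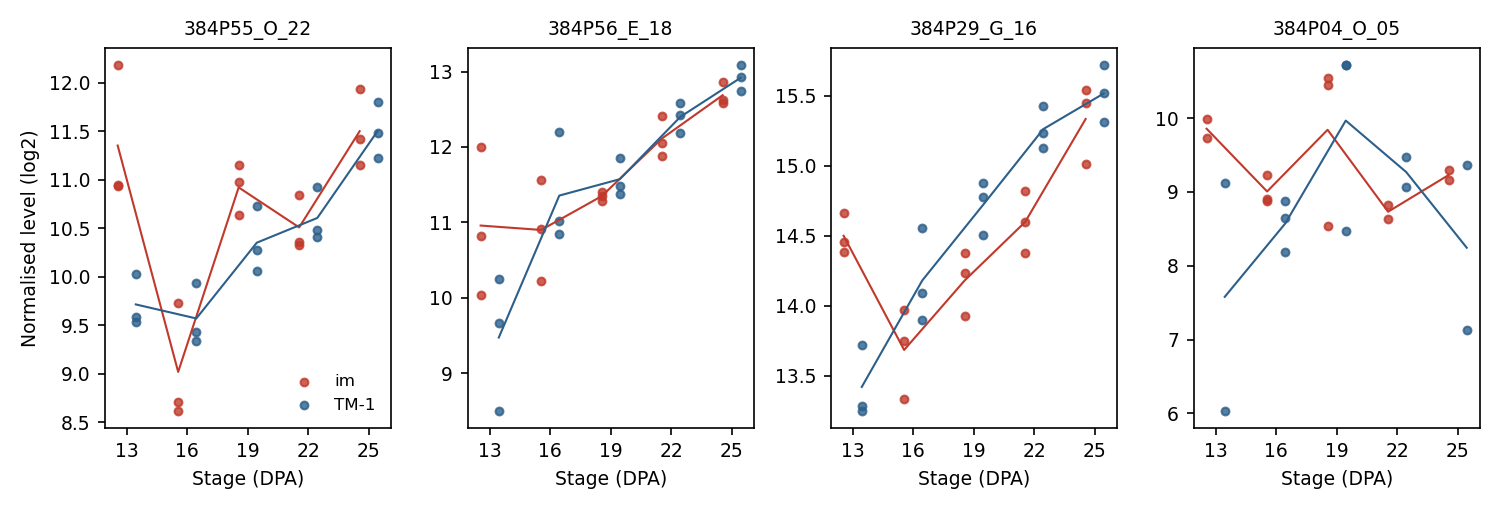
Normalised level (y axis, log2 intensity, with its own range in each panel) of 4 probes at each stage in DPA (x axis), with a point per array and lines through the stage means, im in red and TM-1 in blue, im drawn to the left of TM-1. For 384P55_O_22, 384P56_E_18 and 384P29_G_16 the im points of 13 DPA average above those of TM-1, and for 384P04_O_05 the TM-1 mean of 13 DPA rests on points at 9.12 and 6.04.

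The rule used the ratio of the lines and not their mean level on a spot, so changes in that level were tested. The mean is built from the same signals of both lines, however, so the result is not fully apart from the choice. A low TM-1 signal at 13 DPA favours membership and also lowers the mean level of that stage. From 13 to 25 DPA the members' median change was 1.68 in TM-1, against 0.32 in the im mutant. The mean level was fitted with limma over all 15 arrays, with p-values adjusted by the Benjamini-Hochberg method over all probes. A probe was called at an adjusted p under 0.05 and at least 2-fold. All 21 members could be tested at each stage. Compared with 13 DPA, 8 of them rose by 25 DPA and 0 fell, where 7.47% of all probes tested were called higher at 25 DPA and 13.6% lower. Their folds ran between 2.11 and 6.01, with a median of 2.42. The median change of the 21 was 0.97 on the log2 scale, against -0.23 for all measured probes, and 20 of the 21 were higher on average at 25 DPA, against 39.4% of all measured probes. At an unadjusted p under 0.05 there were 12 members, but the share of all probes at that level was not computed, so nothing is read from this count. With 1 replicate left out of the fit, the 8 became 5 without replicate 1, 4 without replicate 2 and 5 without replicate 3, and 0 fell in each case.

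Probe 384P56_E_18 showed the largest change. Its mean level was 12.97, 12.68 and 12.76 at 25 DPA, against 11.13, 10.24 and 9.27 at 13 DPA. The arrays of both stages did not overlap, and the change was 2.59 ± 0.40 (SE) on the log2 scale, or 6.01-fold (limma, adjusted p = 0.000154). Probe 384P58_N_14 came next, with 13.03, 12.45 and 13.30 at 25 DPA, against 11.08, 11.18 and 10.09 at 13 DPA, a change of 2.14 ± 0.40 (limma, adjusted p = 0.000944). In this probe the lines differed by 1.09 ± 0.17 (SD, n = 3) at 13 DPA, and from 16 DPA onwards its mean ratio stayed between -0.19 and 0.27. The other 6 that rose were 384P29_G_16, 384P48_H_05, 384P75_H_09, 384P75_D_08, 384P71_A_08 and 384P75_L_22, by 1.08 to 1.47 on the log2 scale. Thus 3 of the 8 were from plate 75. All 8 had arrays of 25 DPA that lay entirely above those of 13 DPA, and 5 of the 8 were among the 9 that were below 0 in ratio at 16, 19 and 22 DPA by the source names. The mean level of 384P75_H_09 at 13 DPA includes TM-1 signals under 400 units on all 3 arrays, and that of 384P56_E_18 on 1 array, so these changes are less certain.

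**Figure D5:**
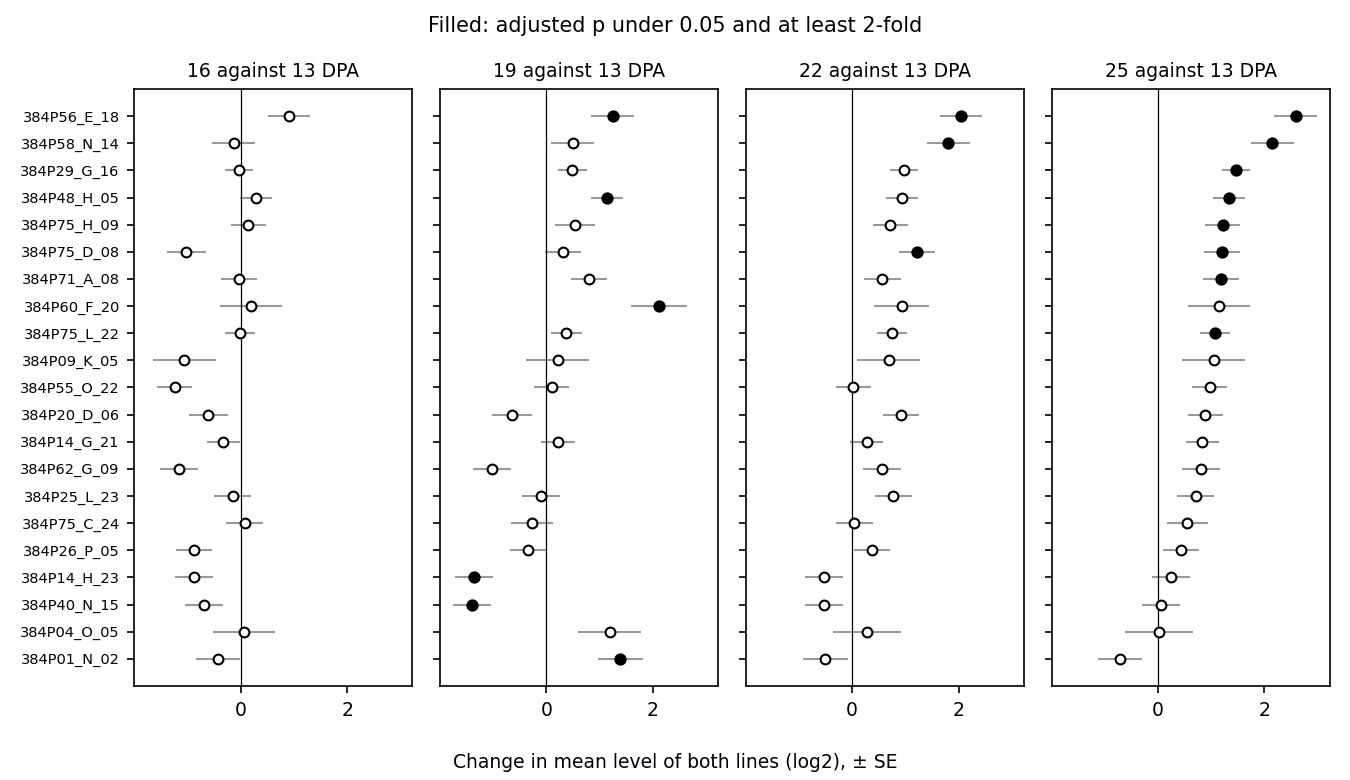
Change in the mean level of both lines (x axis, log2, ± SE) at 16, 19, 22 and 25 DPA against 13 DPA for each of the 21 probes (y axis, ordered by the change at 25 DPA). Filled points were called, which were 0 at 16 DPA, 6 at 19 DPA, 3 at 22 DPA and 8 at 25 DPA.

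By 22 DPA 3 of the 21 had risen and 0 had fallen, where 5.95% of all probes tested were called higher and 12.3% lower. The 3 were 384P56_E_18, by 2.04 (limma, adjusted p = 0.00135), 384P58_N_14, by 1.81 (adjusted p = 0.00391), and 384P75_D_08, by 1.22. All 3 were among the 8 of 25 DPA. Without replicate 1 there was 1, and the change of 384P58_N_14 was then 1.59 (limma, adjusted p = 0.0824). The median change was 0.68, against -0.26 for all measured probes.

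At 19 DPA 4 of the 21 were called higher than at 13 DPA and 2 lower, where 5.16% of all probes tested were called higher and 13.5% lower. The median change was 0.31, against -0.34 for all measured probes. Those that rose were 384P60_F_20, 384P01_N_02, 384P56_E_18 and 384P48_H_05, by 1.15 to 2.11, and those that fell were 384P40_N_15, by -1.40, and 384P14_H_23, by -1.36. The arrays of this stage were not alike. The median background of Cy3 reached 972 units on replicate 1 and 797 units on replicate 2, compared with 284.5 units on replicate 3, and the mean level of 384P60_F_20 was 12.34 and 12.12 on the first 2 and 10.22 on replicate 3. Without replicates 1 and 2 of 19 DPA, 0 of the 21 were called at that stage, in a fit where the lone array is assumed to vary like the others. Leaving out replicate 2 throughout also gave 0, and leaving out replicate 1 gave 1.

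Between 13 and 16 DPA, where the lines' ratio changed by the rule, the mean level was called changed in 0 of the 21 in either direction by limma. The call rate was low over all probes, at 0.179% higher and 0.142% lower. At an unadjusted p under 0.05 there were 6 members, and again the share of all probes at that level was not computed. The lowest adjusted p (limma) was 0.134, for 384P55_O_22. Its mean level was 8.98, 9.07 and 9.84 at 16 DPA, against 10.23, 10.26 and 11.11 at 13 DPA. The median change was -0.15, against -0.16 for all measured probes. In all, 12 of the 21 were called at 1 or more later stages. The share of all probes called at 1 or more later stages was not computed, so nothing is read from this count. It includes the calls of 19 DPA, where the arrays were not alike.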

How the data were processed

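RNA of im and TM-1 fibers was measured on 15 dual-dye cDNA arrays. The authors scanned them with LuxScan, and the deposited array files hold spot intensities of each dye with the background. The deposited value table holds the authors' log2 Cy5 over Cy3 per spot, with column medians close to 0 and with signs as scanned. The methods remove faint spots under 400 units and then use LOWESS within and Aquantile across arrays, but the table also lists faint spots, and whether it holds values after both steps is not stated. In the submitters' processing notes limma 3.4.5 stands beside R 2.12.2. Identifiers, used as deposited, are spot names.

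Members were found from the value table. For levels, intensities under 50 units were raised to 50, spots with both dyes under 400 units were left out, and loess and Aquantile normalization and the fits were made with limma 3.58.1 in R 4.3.3. Control spots (816) were left out. Between 13761 and 19272 probes were measured per array and precision is limited by the number of arrays.

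Named probes were, per direction at 13 DPA, the 2 largest ratios measured on all 15 arrays, per direction of level change at 16 and 25 DPA the 2 largest called with separate arrays, and those nearest to each limit. Others were singled out after their values had been seen. The members, the rule and the lists were chosen with earlier results of these data known. The alternatives were other limits, filters and normalizations, a replicate block, and left-out replicates.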

Additional observations from a re-analysis of the deposited data

Results flagged for a closer look

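Several of the named probes had a ratio above 0 on every measured array of 13 DPA and below 0 on every measured array of a later stage. This difference between stages was not tested, since the ratios chose the probes, and by the material labels the signs at 16 and 22 DPA would turn. For 384P56_E_18 the later means were -0.46 at 16 DPA, -0.23 at 19 DPA, -0.30 at 22 DPA and -0.22 at 25 DPA. For 384P55_O_22 they were -0.56 at 16 DPA and -0.10 at 22 DPA, and for 384P75_D_08 the mean was -0.63 at 16 DPA. On 2 arrays at 13 DPA, 384P04_O_05 had -0.21 at 19 DPA and -0.53 at 22 DPA, and 384P01_N_02 had -0.49 at 19 DPA.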

How the results depend on the processing

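The count of 21 probes higher in the im mutant became 8 with a limit of 1.2 at 13 DPA, 8 with a limit of 0.5 at the later stages, and 168 with no filter on faint spots, where 87 were higher in TM-1. The count of 0 in TM-1 became 1 with ratios by loess and Aquantile from the intensities (24 in the im mutant, 20 of them shared), and 1 when either dye under 400 units left a spot out (18 in the im mutant). Without a replicate it was 2 to 5, and 14 to 21 in the im mutant. Among alternatives chosen after seeing the data, it was 1 with 19 DPA taken from replicate 3 only (17 in the im mutant) and 5 with no limit at 19 DPA (35 in the im mutant). The members called for a changed mean level at 19 DPA were 3 with either dye under 400 units left out and 0 without replicates 1 and 2 of 19 DPA, and without a replicate 0 to 5. At 22 DPA they were 5 with no filter and 1 to 3 without a replicate. At 25 DPA the 8 became 11 with no filter, 9 with only the 6 arrays of the 2 stages, and 6 with median centring in place of Aquantile. They were 7 with normexp background correction, 7 with either dye under 400 units left out, and 4 to 5 without a replicate. None was lower at 25 DPA in any setting. Fits without a replicate had fewer arrays and members to test, and for the other settings the cause was not tested. Without replicate 1 the change of 384P58_N_14 at 22 DPA was 1.59 (limma, adjusted p = 0.0824). Replicate numbers were not treated as pairing the samples. Same-numbered arrays correlated in their deviations with a median of 0.045 over 30 pairs, against -0.029 over 60 pairs of different number. This cannot show whether the samples were paired, and by the source names replicate 2 shares its exchanged dyes over the stages. With the replicate as a block, 0, 7, 3 and 8 members were called at 16, 19, 22 and 25 DPA. Of the other values for single probes, 81 kept their side of the threshold or moved by less than 1 SD. For 2 probes with wide SDs, these include mean ratios at 13 DPA that fell under the limit of 1. The mean of 384P04_O_05 (SD 3.00, n = 2) was 0.61 without replicate 2 and with either dye under 400 units left out. That of 384P01_N_02 (SD 1.05, n = 2) was 0.40 without replicate 2 and 0.73 with no filter on faint spots.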
